A study of Mus musculus with 84 samples.

Results

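Genes of the cell cycle, kinesins and DNA replication were followed through the mammary glands, tumors and lung metastases of mice with and without an MMTV-Wnt-1 or MMTV-Neu transgene. Members were all clones of the 2 spotted cDNA arrays that carried a single gene symbol of 1 of these families: Kif, Mcm, Cenp, Bub, Aurk, Plk, Rfc or Cdc followed by a letter or digit, Cdk or Ccna, Ccnb or Ccne followed by a number, or Fen1, Lig1, Top2a, Mad2l1, Anln, Spag5 or Hmgb2. The clones of a gene were averaged. This rule gave 87 genes from 133 clones on the 15k array, of 7766 genes with a clone of their own and 15360 clones in all. On the 8.7k array it gave 72 genes from 92 clones, of 5725 genes and 8832 clones, and all 72 were also on the 15k array. The symbol rule also takes in genes that only share a name, such as Cdcp1, a cell surface protein, and these were kept and are described apart.

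The 15k arrays held 10 lung metastases (WntM) and 23 mammary tumors (WntT) of MMTV-Wnt-1 mice, 3 lung metastases (NeuM) and 12 mammary tumors (NeuT) of MMTV-Neu mice, 7 hyperplastic mammary glands of MMTV-Wnt-1 mice (WntH), 3 samples of intestinal fat of virgin FVB mice (Fat) and 5 mammary glands of non-transgenic virgin FVB mice (VMG). A further 2 lung metastases grew in non-transgenic mice after MMTV-Neu tumor cells were injected into the tail vein. The 8.7k arrays held 6 tumors of MMTV-Wnt-1 mice in a p53-/- background (WntT/p53-/-) and 10 MMTV-Wnt-1 tumors (WntT). VMG and WntH were taken at 9 weeks of age, WntT at 9 to 56 weeks, NeuT at 32 to 60 weeks, Fat at 12 weeks and WntT/p53-/- at 9 to 14 weeks. Both transgenes were driven by the MMTV promoter, which is active mainly in mammary epithelium, and the Neu transgene was the rat cDNA of unactivated Neu. MMTV-Neu mice were FVB and MMTV-Wnt-1 mice were of a mixed background of FVB, SJL and C57BL/6, so transgene, strain background and age cannot be told apart in a comparison of the 2 tumor types. Likewise transgene and strain background cannot be told apart where WntH or WntT is set against VMG, nor tumor and age where NeuT is set against VMG, and age also differed in part between WntT and WntH, WntT and VMG, and WntT/p53-/- and WntT. RNA came from whole pieces of tissue, in which fewer cells of a type and less RNA per cell cannot be told apart.

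Each value is the log2 ratio of the sample (Cy5) to a common reference RNA pooled from mouse organs (Cy3), so that 0 is the level of the reference and a difference of 1 is a 2-fold change. Levels are therefore compared between samples for 1 gene and never between genes. Differences were tested with limma over all genes of the array, and a gene was called higher or lower at a Benjamini-Hochberg adjusted p under 0.05. The smallest groups, of 3 and 5 arrays, limit the precision. On the 15k arrays the SD of all log2 ratios exceeded 1.3 on 6 of 65 arrays (Fat 44, WntT 42 and 49, WntM 19, 50 and 52), and results that rest on these arrays are given with and without them. Mice were numbered in the titles, but the labels do not say whether arrays of 1 group came from separate preparations, so p-values measure the spread between these arrays.

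In a dividing cell, cyclins and their kinases set the order of events. In S phase the MCM helicase, loaded with Cdc6 at replication origins, opens the DNA, the Rfc clamp loader places the sliding clamp, and the flap nuclease Fen1 and the ligase Lig1 join the fragments of the lagging strand. In mitosis the Cenp proteins build the kinetochore, Bub1b and Mad2l1 hold the spindle checkpoint until chromosomes are attached, the anaphase promoting complex then ends it, and mitotic kinesins and Anln move chromosomes and close the cleavage furrow. The mammary epithelium of the virgin mouse lies as sparse ducts in a fat pad. Hyperplastic ducts also lie in stroma, while tumors often hold much less of it. By a list of roles for each symbol, 55 of the 87 genes were placed in these steps (called cell cycle genes here). The remaining 32 were transport and other kinesins, other cyclin-dependent kinases, Cdc42 with its partners, and other Cdc genes. The placing is rough: Mcm3ap, better known for mRNA export, is among the 55, and Cdk7, which activates other Cdks, among the 32. Well known members without a clone of their own symbol on the 15k array, among them Ccnb1, Plk1, Aurka, Top2a and Mcm3, were not analysed here.

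Genes of the cell cycle are known to share promoter elements: E2F sites in many genes of S phase, and CCAAT boxes with a CHR element in many genes of mitosis. The windows of 300 bases around the start sites are shown for 4 members that carry the results that follow, Cdk1, Mcm5, Hmgb2 and Spag5. They are RefSeq sequences of build GRCm38.p6, at chr10:69352863-69353162 (minus strand) for Cdk1, chr8:75109259-75109558 (plus strand) for Mcm5, chr8:57511593-57511892 (plus strand) for Hmgb2 and chr11:78301341-78301640 (plus strand) for Spag5. Each runs 5′ to 3′ in the direction of the gene, with matches to the 3 motifs in capitals: the CCAAT box, a CHR, spelled as TTTGAA or as TTTAAA or as TTCGAA, and an E2F site, spelled as TTTCCCGC or as TTTGGCGC or as TTTCGCGC or as TTTGCCGC, all searched on both strands.
Cdk1: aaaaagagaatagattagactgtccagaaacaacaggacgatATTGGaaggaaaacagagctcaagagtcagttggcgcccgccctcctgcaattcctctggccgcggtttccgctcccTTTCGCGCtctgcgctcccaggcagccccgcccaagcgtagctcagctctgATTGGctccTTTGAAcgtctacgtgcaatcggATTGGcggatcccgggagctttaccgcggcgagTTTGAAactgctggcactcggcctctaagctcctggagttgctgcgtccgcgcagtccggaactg
Mcm5: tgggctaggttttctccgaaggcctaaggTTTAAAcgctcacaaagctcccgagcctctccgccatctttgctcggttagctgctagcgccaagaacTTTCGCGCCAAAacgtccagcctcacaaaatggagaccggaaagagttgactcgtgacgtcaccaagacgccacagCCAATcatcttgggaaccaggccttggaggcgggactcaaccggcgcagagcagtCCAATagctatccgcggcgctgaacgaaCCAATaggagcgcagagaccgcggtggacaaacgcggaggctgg
Hmgb2: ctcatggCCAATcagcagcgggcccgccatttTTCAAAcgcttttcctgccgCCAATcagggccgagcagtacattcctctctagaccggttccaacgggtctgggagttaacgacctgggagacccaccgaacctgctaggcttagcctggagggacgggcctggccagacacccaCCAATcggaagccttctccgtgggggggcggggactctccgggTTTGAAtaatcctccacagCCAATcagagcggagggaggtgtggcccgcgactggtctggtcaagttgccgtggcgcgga
Spag5: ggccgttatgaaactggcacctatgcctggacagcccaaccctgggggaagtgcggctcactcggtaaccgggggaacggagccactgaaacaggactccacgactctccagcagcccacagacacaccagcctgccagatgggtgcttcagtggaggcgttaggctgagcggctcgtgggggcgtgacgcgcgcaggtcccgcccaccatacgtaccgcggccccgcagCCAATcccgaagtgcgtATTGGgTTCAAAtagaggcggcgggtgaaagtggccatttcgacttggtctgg
The Cdk1 window held 3 CCAAT boxes, 2 CHR matches and 1 E2F match. That of Mcm5 held 3 CCAAT boxes, 1 CHR match and 2 E2F matches that overlap each other, that of Hmgb2 held 4 CCAAT boxes and 2 CHR matches, and that of Spag5 held 2 CCAAT boxes and 1 CHR match. Promoters were found for 52 of the 55 cell cycle genes (64 promoters, as some genes have several). Of these 64, 53.1% held CCAAT, 45.3% a CHR and 20.3% an E2F match, beside 37.4%, 28.8% and 2.26% of all 32851 promoters of the table. The 33 promoters of 28 genes of other roles held CCAAT in 33.3% and a CHR in 18.2%, and 0 held an E2F match. These are matches of letters in a window and do not show binding.

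Across the sample groups, the cell cycle genes were lowest in normal gland and fat, somewhat higher in hyperplasia and highest in MMTV-Wnt-1 tumors. The median log2 ratio over these 55 genes had a lowest, median and highest value of -0.51, -0.46 and -0.23 over the VMG samples, -0.36, -0.31 and -0.06 over WntH, -0.21, 0.14 and 0.43 over WntT and -0.26, 0.00 and 0.15 over WntM. It was -0.25, -0.10 and 0.02 over NeuT, -0.13, -0.09 and -0.02 over the 3 NeuM, and -2.61, -0.45 and -0.44 over the 3 Fat. The VMG samples all lay below every WntT and NeuM sample, while the lowest NeuT (-0.25) and the lowest WntM (-0.26) lay just below the highest VMG. These medians are a description with no test, and the single genes behind them moved by very different amounts.

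**Figure D1:**
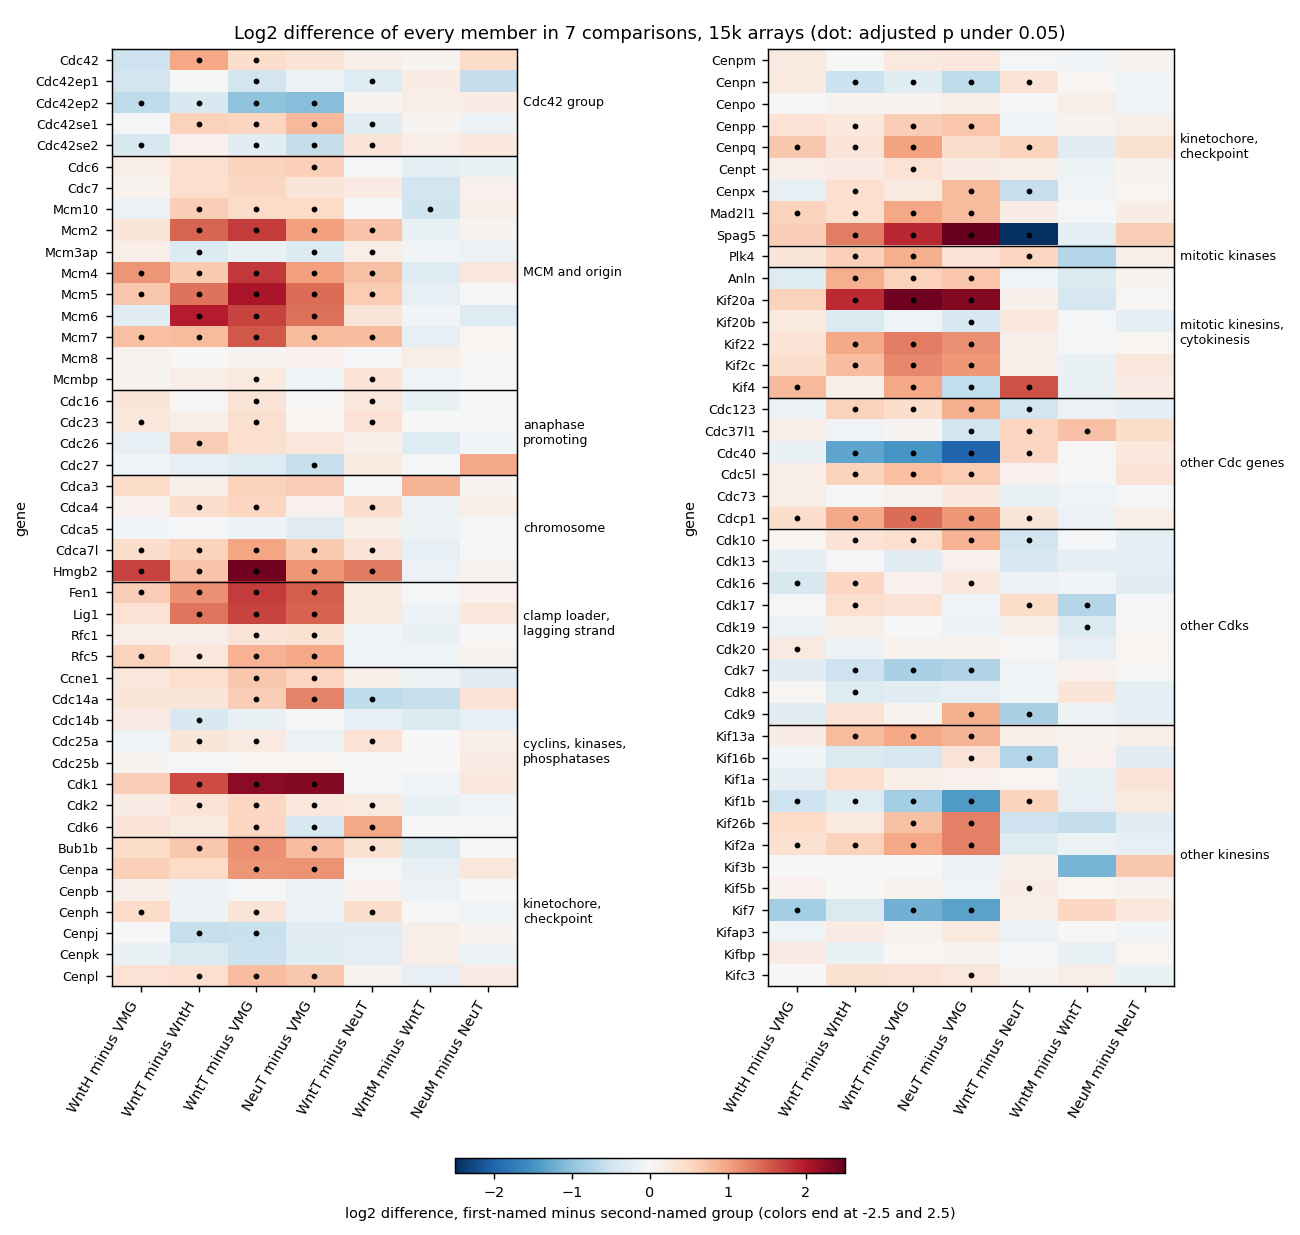
Log2 difference (color, first-named minus second-named group) of each of the 87 members (rows, by role) in 7 comparisons (columns) on the 15k arrays, where a dot marks a limma adjusted p under 0.05 and colors end at -2.5 and 2.5. Cdk1, Kif20a and Spag5 are deep red in the columns NeuT minus VMG and WntT minus VMG, the 2 metastasis columns hold 4 dots in all, and Spag5 is the darkest blue in WntT minus NeuT (-2.68).

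Against normal gland, MMTV-Neu tumors had 40 of the 87 members higher and 13 lower, where 26.8% and 28.8% of all genes on the array were higher and lower. The median difference over the members was 0.28 and that over all genes 0.01 (log2). Of the 55 cell cycle genes 28 were higher and 6 lower, with a median of 0.44, and of the 32 others 12 were higher and 7 lower, with a median of 0.10. The genes that rose most were Spag5, Cdk1, Kif20a, Fen1 and Lig1.

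Spag5, a protein of the mitotic spindle and kinetochore also called astrin, changed most. Its log2 ratio had a lowest, median and highest value of 1.08, 2.76 and 3.55 over the 12 NeuT, against -2.33, -2.24, -1.76, -1.74 and -1.85 in the 5 VMG. Every NeuT sample lay far above every VMG sample. The difference was 4.57 ± 0.34 (SE), a 23.7-fold rise (limma adjusted p = 2.54e-09), and the 2 clones of the gene, fitted each on its own, gave 18.6-fold and 30.3-fold. Cdk1, the kinase that drives entry into mitosis, was at -0.29, 0.34 and 0.85 (lowest, median, highest) in NeuT, against -1.74, -2.11, -1.99, -2.08 and -2.16 in VMG. Its groups did not overlap either, and the rise was 4.91-fold (2.30 ± 0.16, adjusted p = 1.46e-09). Kif20a, a kinesin of cytokinesis, was at -0.46, 0.28 and 1.26 in NeuT, against -0.59, -3.06, -1.97, -2.47 and -1.86 in VMG. The lowest NeuT sample lay close to the highest VMG sample, which stood apart from the other 4, and the rise was 4.89-fold (2.29 ± 0.33, adjusted p = 1.19e-05).

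Replication genes rose together. Fen1 was at -1.21, -0.68 and -0.57 (lowest, median, highest) in NeuT, against -2.35, -2.42, -2.17, -2.21 and -2.27 in VMG, a 2.86-fold rise with tight groups (1.52 ± 0.09, adjusted p = 2.59e-10). Lig1 was at -1.31, -0.06 and 0.38 in NeuT, against -0.51, -1.84, -1.86, -2.03 and -1.78 in VMG. One VMG sample (13), the same that was high for Kif20a, lay within the NeuT range, and the rise was 2.76-fold (1.47 ± 0.25, adjusted p = 8.71e-05). Without VMG 13 the differences were 1.74 for Lig1 and 2.64 for Kif20a, and 38 members were higher and 11 lower. The share of all genes called without VMG 13 is not given here, so these counts cannot be set against it. All 4 genes of the clamp loader and lagging strand passed, with Rfc5 1.96-fold and Rfc1 1.3-fold higher. Rfc5, a clamp loader subunit, was at 0.10, 0.56 and 0.79 in NeuT, against -0.51, -0.37, -0.56, -0.42 and -0.37 in VMG, with no overlap.

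The helicase showed the same shift with more spread. Of the 11 genes of the helicase and origins 7 were higher, led by Mcm5 (2.64-fold), Mcm6 (2.59-fold), Mcm2 (2.05-fold) and Mcm4 (2.04-fold), and Cdc6, the loader of the helicase, was 1.52-fold higher. Mcm5 was at -1.37, -0.50 and -0.12 in NeuT, against -2.04, -2.30, -2.15, -1.89 and -1.53 in VMG, and Mcm4 at -0.999, -0.57 and -0.10 in NeuT, against -1.57, -1.25, -1.75, -1.71 and -1.51 in VMG. Mcm2 was at -1.62, -1.005 and -0.48 in NeuT, against -2.14, -2.61, -1.84, -1.88 and -1.75 in VMG. All NeuT lay above all VMG in these 3 genes and in Mcm7 (1.72-fold). Mcm3ap, a protein that binds Mcm3 and is better known for mRNA export, was 1.27-fold lower.

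Among kinetochore and checkpoint genes 7 of 16 rose and 1 fell. Besides Spag5 these were Cenpa, the centromeric histone (2.18-fold), Cenpx (1.73-fold), Mad2l1 (1.73-fold), Bub1b (1.71-fold), Cenpp (1.63-fold) and Cenpl (1.60-fold), while Cenpn was 1.55-fold lower. Of 6 mitotic kinesins and cytokinesis genes 4 rose, Kif20a, Kif22 (2.22-fold), the microtubule depolymerase Kif2c (2.13-fold) and Anln (1.62-fold), and 2 fell, Kif20b (1.31-fold) and Kif4. Kif4, a motor that binds chromosomes, was at -0.60, -0.35 and -0.14 in NeuT, against 0.35, 0.02, -0.10, 0.43 and 0.48 in VMG. Its groups came close without overlapping, and it was 1.54-fold lower (-0.62 ± 0.10, adjusted p = 3.76e-05). Of the 4 subunits of the anaphase promoting complex 0 rose and Cdc27 was 1.48-fold lower (adjusted p = 4.31e-02). Cdc27 was at -0.58, -0.25 and 0.73 in NeuT, against 1.49, 0.30, -0.09, 0.12 and 0.42 in VMG, and without the VMG sample at 1.49 (13) the difference was -0.31 (adjusted p = 0.20).

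Among cyclins and their kinases 4 of 8 rose and 1, Cdk6 (1.32-fold), fell. Ccne1, the cyclin that starts S phase, was 1.46-fold higher in NeuT and its partner Cdk2 1.20-fold. The phosphatase gene Cdc14a was 2.37-fold higher (1.24 ± 0.30, adjusted p = 1.66e-03), at -0.46, 1.60 and 2.19 in NeuT, against 0.17, 0.41, -0.06, 0.17 and 0.23 in VMG. All but 1 NeuT lay above all VMG. In the chromatin group Hmgb2 (2.15-fold) and Cdca7l, a nuclear protein related to Cdca7 (1.58-fold), were higher. Cdca7l was at 0.46, 0.64 and 0.90 in NeuT, against -0.23, -0.01, 0.02, 0.03 and 0.10 in VMG, with no overlap. Plk4 was not called (difference 0.37), at -1.03, -0.72 and 0.33 in NeuT, against -0.82, -0.98, -1.06, -1.12 and -0.89 in VMG.

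The other roles moved both ways. Cdc40, a splicing factor, was 3.97-fold lower in NeuT and Cdc42ep2, an effector of the GTPase Cdc42, 2.09-fold lower. The 2 clones of Cdc40 disagreed, and its fall rested on a single clone, as described below. Cdc42ep2 was at -0.94, -0.74 and -0.50 in NeuT, against 0.10, 0.14, 0.38, 0.51 and 0.49 in VMG. The axonal transport kinesin Kif1b was 2.66-fold lower, at -1.01, -0.49 and 0.08 in NeuT, against 0.60, 0.65, 1.45, 0.86 and 0.96 in VMG. Kif7, a kinesin of hedgehog signalling, was 2.51-fold lower, at -1.44, -1.10 and -0.72 in NeuT, against 0.82, -0.24, 0.17, 0.14 and 0.34 in VMG. The groups did not overlap in Cdc40, Cdc42ep2, Kif1b or Kif7, and the share of all genes without overlap is not given here. Kif2a (2.39-fold), Kif26b (2.38-fold), Cdcp1 (2.11-fold), Cdk9, the kinase of transcription elongation (1.84-fold), and Cdk10 (1.83-fold) were higher. Cdk9 was at 1.25, 1.51 and 1.95 in NeuT, against 0.57, 0.35, 0.62, 0.97 and 0.86 in VMG, and Cdcp1 at 0.44, 0.74 and 1.11 in NeuT, against -0.59, -0.33, -0.29, -0.32 and -0.18 in VMG, both without overlap. Of the further 37 measured genes of a wider cell cycle and replication list, 29 were higher and 0 lower in NeuT, with a median difference of 0.70, among them the mitotic kinase Pbk (difference 2.38), Ect2, an exchange factor of cytokinesis (1.97), and the Cdk subunit Cks2 (1.23).

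Markers of fat and muscle moved with these groups. All 9 adipocyte markers were lower in NeuT (list mean -1.96 to -0.98, against 2.27 to 2.57 in VMG), as were 4 of 5 of skeletal muscle (list mean -1.14 to 0.52, against 2.55 to 3.48 in VMG), 5 of 5 of endothelium and 5 of 8 of lymphocytes. Of 4 luminal markers 2 were higher and 2 lower, and of 4 myoepithelial markers 3 were lower. The part of all these markers in the result was not tested.

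MMTV-Wnt-1 tumors were set against the hyperplastic gland of the same transgenic line, samples that enter neither side of the comparison above. Here 38 members were higher and 9 lower in WntT (background 21.9% and 22.2%), with a median of 0.31 over the members and -0.03 over all genes. Of the cell cycle genes 28 were higher and 4 lower, and of the other roles 10 and 5. The helicase genes Mcm6, Mcm2 and Mcm5, the ligase Lig1, the kinesin Kif20a and the kinase Cdk1 rose by 2.5-fold or more.

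The helicase subunit Mcm6 was at -1.78, 0.08 and 0.97 (lowest, median, highest) over the 23 WntT, against -2.69, -1.99 and -1.26 over the 7 WntH. All but 2 WntT lay above every WntH, and the rise was 3.91-fold (1.97 ± 0.28, adjusted p = 9.94e-07). Kif20a, at -1.05, 0.44 and 1.29 in WntT, against -2.53, -1.55 and -0.07 in WntH, was 3.62-fold higher (1.86 ± 0.28, adjusted p = 2.76e-06), with 19 of 23 WntT above all WntH. Cdk1 was at -1.18, 0.23 and 1.28 in WntT, against -2.22, -1.33 and -0.45 in WntH, and was 3.09-fold higher (1.63 ± 0.25, adjusted p = 2.42e-06). Lig1 and Fen1 separated the groups fully. Lig1 was at -0.60, 0.12 and 0.54 in WntT, against -1.65, -1.24 and -0.70 in WntH (2.51-fold, adjusted p = 3.68e-10), and Fen1 at -1.25, -0.57 and 0.21 in WntT, against -2.15, -1.66 and -1.26 in WntH (2.19-fold, adjusted p = 3.29e-07). In Fen1 the lowest tumor and the highest hyperplasia were almost level.

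In all, 6 of 11 helicase and origin genes, 3 of 4 of the clamp loader and lagging strand, 7 of 16 of kinetochore and checkpoint and 4 of 6 of mitotic kinesins and cytokinesis were higher in WntT. Mcm2 (2.73-fold), Mcm5 (2.57-fold), Spag5 (2.42-fold), Kif22 (1.93-fold), Anln (1.87-fold), Mcm7 (1.74-fold), Kif2c (1.71-fold), Bub1b (1.60-fold) and Plk4, the kinase of centriole duplication (1.51-fold), were among them. Mcm2 was at -1.17, -0.25 and 0.66 in WntT, against -2.29, -1.74 and -0.92 in WntH, and Mcm7 at -0.04, 0.34 and 0.79 in WntT, against -0.74, -0.62 and 0.32 in WntH. Anln was at -0.28, 0.29 and 0.68 in WntT, against -1.43, -0.66 and 0.14 in WntH. In each of these 3 genes most WntT lay above all WntH. Kif4 was not called (difference 0.15), and neither was Ccne1 (0.40). The cell cycle genes that fell were Cenpj, a centriole protein (1.48-fold), Cenpn (1.45-fold), the phosphatase gene Cdc14b (1.3-fold) and Mcm3ap (1.27-fold). Cenpn was at -0.30, 0.14 and 0.42 in WntT, against 0.31, 0.68 and 1.04 in WntH.

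Outside these roles Cdc40 was 2.49-fold lower, at -1.85, -1.20 and -0.49 in WntT, against -0.13, 0.18 and 0.51 in WntH. The value of Cdc40 is the mean of 2 clones, which disagreed in other comparisons. The small GTPase Cdc42, which shapes the actin skeleton, was 1.95-fold higher, at -0.51, 0.17 and 0.60 in WntT, against -1.09, -0.84 and -0.48 in WntH. Cdcp1 was 1.93-fold higher, at 0.57, 1.04 and 1.66 in WntT, against -0.10, 0.04 and 0.49 in WntH. Cdc40 and Cdcp1 separated the groups, and in Cdc42 all but 1 WntT lay above all WntH. Kif13a, a kinesin of vesicle transport, was 1.72-fold higher, and Cdk7, a kinase that activates other Cdks, 1.44-fold lower, though its clones disagreed. In WntT, 24 of 37 genes of the wider list were higher and 0 lower, with a median of 0.49, among them thymidine kinase Tk1 (difference 1.17), Uhrf1, which maintains DNA methylation (1.16), and Rpa1, which coats single-stranded DNA (0.94). Adipocyte markers were again lower, 8 of 9 (list mean -2.29 to -0.80 in WntT, against 0.99 to 1.55 in WntH), with 5 of 5 skeletal muscle markers lower, and their part in the result was not tested.

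Of the members, 31 were higher both in NeuT against VMG and in WntT against WntH, which share no samples. That was 77.5% of the 40 higher in NeuT, 81.6% of the 38 higher in WntT and 35.6% of the 87 members. Of all genes on the array 1040 (13.4%) were higher in both, 49.98% of those higher in NeuT and 61.03% of those higher in WntT. They held 6 Mcm genes (Mcm2, Mcm4, Mcm5, Mcm6, Mcm7 and Mcm10), Fen1, Lig1, Rfc5, Cdk1, Cdk2, Bub1b, Mad2l1, Spag5, Kif20a, Kif22, Kif2c, Anln and Hmgb2. In RefSeq, 29 of the 31 had a promoter, and of their 37 promoters 51.4% held CCAAT, 35.1% a CHR and 18.9% an E2F match, beside the shares of all promoters given above.

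Hyperplastic glands already differed from normal glands of the same age. Here 15 members were higher and 5 lower in WntH (background 9.58% and 14.3%), with a median of 0.17 over the members and -0.02 over all genes, and the cell cycle genes counted 12 higher and 0 lower. Hmgb2, a DNA-bending protein of chromatin, was at -0.93, -0.59 and 0.59 (lowest, median, highest) over the 7 WntH, against -1.97, -1.67, -2.43, -2.38 and -2.28 in the 5 VMG. All WntH lay above all VMG, with 1 WntH (sample 5) well above the others, and the rise was 3.24-fold (1.69 ± 0.23, adjusted p = 2.43e-04). Mcm4 was at -0.78, -0.64 and 0.67 in WntH, against -1.57, -1.25, -1.75, -1.71 and -1.51 in VMG, with the same WntH sample highest, and rose 2.15-fold (1.10 ± 0.22, adjusted p = 2.78e-03).

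Kif4 was 1.76-fold higher in WntH (adjusted p = 2.08e-03), at 0.73, 1.13 and 1.52 against 0.35, 0.02, -0.10, 0.43 and 0.48 in VMG. All WntH lay above all VMG, where in MMTV-Neu tumors all samples lay below them. Mcm7 (1.69-fold), the kinetochore gene Cenpq (1.61-fold), Mcm5 (1.59-fold), Fen1 (1.53-fold), Rfc5 (1.5-fold), Mad2l1 (1.49-fold) and Cenph (1.37-fold) were also higher. Kif7 (1.80-fold), Cdc42ep2 (1.55-fold), Kif1b (1.44-fold), Cdk16 (1.33-fold) and Cdc42se2 (1.29-fold) were lower. Several genes that were far higher in tumors were not called in hyperplasia, and a missed threshold does not show that they were alike: Cdk1 differed by 0.62, with WntH at -2.22 to -0.45 and VMG at -2.16 to -1.74. The differences of the other uncalled genes were 0.61 for Spag5, 0.57 for Kif20a, 0.46 for Bub1b, 0.43 for Kif2c, 0.37 for Lig1, 0.30 for Mcm2, 0.27 for Ccne1, -0.28 for Mcm6 and -0.32 for Anln. Without VMG 13, Lig1 (0.64, adjusted p = 0.00878), Kif2c (0.60, adjusted p = 0.0151) and Bub1b (0.53, adjusted p = 0.0479) passed, and Mcm5 did not (0.66, adjusted p = 0.0725). Mcm5 also missed the threshold without VMG 17, 27 or 28 (adjusted p up to 0.105), as did Cdc42se2 (up to 0.128) and Cdk16 (up to 0.0812) without VMG 27, 28 or 29. Among the 37 genes of the wider list 16 were higher and 0 lower, with a median of 0.41, among them the primase Prim1 (difference 1.05), Orc6 of the origin complex (0.67) and the nuclear lamina protein Tmpo (0.66). Beside this, 8 of 9 adipocyte markers were lower in WntH (list mean 0.99 to 1.55, against 2.27 to 2.57 in VMG). Of endothelium 4 of 5 were lower, and of 4 luminal markers 2 were higher and 1 lower. The part of these markers in the result was not tested.

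Over both steps, WntT set against VMG had 46 members higher and 9 lower (background 26% and 26.5%), with a median of 0.40 over the members and -0.02 over all genes. This comparison shares WntT and VMG with those above, so its values are given side by side with them and not as a separate finding. Hmgb2 was 5.31-fold higher in WntT, with 3.24-fold between WntH and VMG and 1.64-fold between WntT and WntH. For Mcm4 the 3 folds were 3.39, 2.15 and 1.58, and for Cenpq 2.00, 1.61 and 1.24. For Cdk1 they were 4.76 (WntT over VMG) and 3.09 (WntT over WntH), and for Kif20a 5.36 and 3.62, with no call between WntH and VMG. Mcm6 was 3.21-fold higher in WntT than in VMG and 3.91-fold higher than in WntH, also with no call between the glands. All 4 clamp loader and lagging strand genes and 37 of the 55 cell cycle genes were higher in WntT, and 2, Cenpj and Cenpn, were lower. Cenpj missed the threshold without VMG 13 (adjusted p = 0.0948) or VMG 17 (0.0658). Of the wider list 28 of 37 were higher and 0 lower in WntT, with a median of 0.93, among them Ect2 (2.21), Uhrf1 (1.92) and the chromatin assembly gene Chaf1b (1.08). All 9 adipocyte markers were lower in WntT (list mean -2.29 to -0.80, against 2.27 to 2.57 in VMG), as were 5 of 5 of skeletal muscle (list mean -1.34 to 0.79, against 2.55 to 3.48 in VMG) and 5 of 5 of endothelium, while 3 of 4 luminal markers were higher and 1 lower, and their part in the result was not tested.

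**Figure D2:**
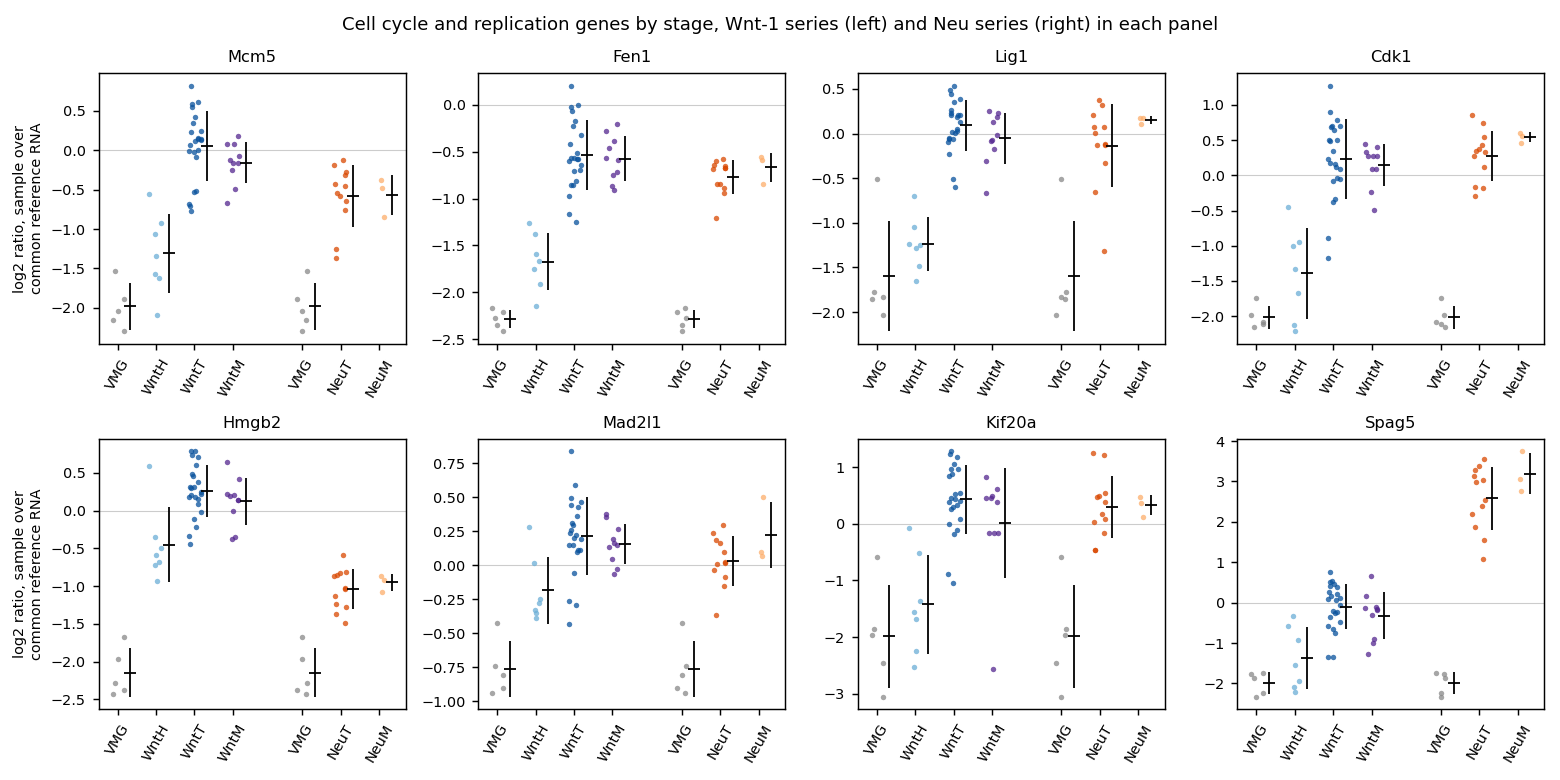
Log2 ratio to the common reference RNA (y axis) of 8 members in each sample (points) along the stages of the MMTV-Wnt-1 series (VMG, WntH, WntT, WntM) and the MMTV-Neu series (the same VMG, NeuT, NeuM), with the mean and SD of each group as cross and bar. Hmgb2 was higher in all WntH than in all VMG, Fen1 climbed at both steps, and Spag5 was above 1 in every NeuT and NeuM and in no other group.

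The 2 tumor types were then set against each other. WntT had 27 members higher and 9 lower than NeuT (background 22.8% and 23.0%), with a median of 0.12 over the members and -0.03 over all genes. Helicase and origin genes were higher in WntT in 6 of 11 cases, while 0 of 4 clamp loader and lagging strand genes were called in either direction.

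Spag5 was the gene that differed most. Its log2 ratio was -1.35, 0.08 and 0.77 (lowest, median, highest) over the 23 WntT, against 1.08, 2.76 and 3.55 over the 12 NeuT. No WntT reached the lowest NeuT, and Spag5 was 6.40-fold lower in WntT (-2.68 ± 0.22, adjusted p = 2.27e-12). Kif4 ran the other way, at 0.38, 1.25 and 2.38 in WntT, against -0.60, -0.35 and -0.14 in NeuT. The groups did not overlap, and Kif4 was 3.02-fold higher in WntT (1.59 ± 0.14, adjusted p = 1.28e-11). Hmgb2 was at -0.44, 0.24 and 0.79 in WntT, against -1.49, -1.04 and -0.59 in NeuT. It too separated the groups, and was 2.47-fold higher in WntT (1.31 ± 0.11, adjusted p = 4.14e-12).

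Cdk6, a kinase of the G1 phase, was at -0.65, 0.51 and 0.90 in WntT, against -0.67, -0.51 and -0.17 in NeuT. All WntT but 1 lay above every NeuT, and Cdk6 was 1.93-fold higher in WntT (0.95 ± 0.10, adjusted p = 1.84e-10). Mcm7 (1.71-fold), Mcm4 (1.66-fold), Mcm2 (1.64-fold), Mcm5 (1.55-fold), Cenpq (1.47-fold), Plk4 (1.45-fold), Cdc25a, a phosphatase that activates Cdks (1.29-fold), and Bub1b (1.29-fold) were also higher in WntT. Cdk9 (1.75-fold), the transport kinesin Kif16b (1.66-fold), the phosphatase gene Cdc14a (1.54-fold), Cenpx (1.48-fold), Cdc123 (1.39-fold) and Cdk10 (1.38-fold) were lower in WntT. Fen1, Lig1, Cdk1, Kif20a, Kif2c, Kif22, Anln, Mad2l1, Ccne1 and Mcm6 were not called between the tumor types, with differences from -0.05 for Cdk1 and -0.11 for Anln to 0.23 for Fen1 and Lig1 and 0.31 for Mcm6. Of the wider list 12 of 37 were higher and 3 lower in WntT, among them Tmpo (difference 0.76), Rpa3 (0.41) and Gins4, a partner of the helicase (-0.43). Of 4 myoepithelial markers 3 were higher in WntT, and of 4 luminal markers 3 were lower and 1 higher. The part of these markers in the result was not tested.

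**Figure D3:**
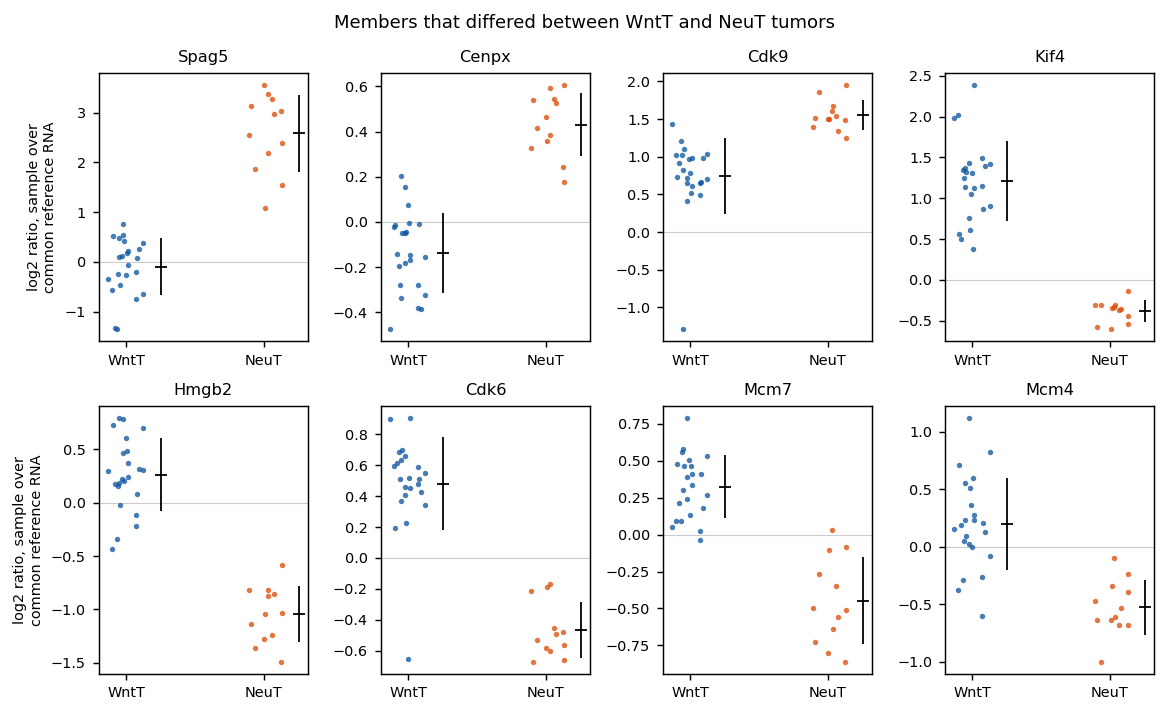
Log2 ratio to the common reference RNA (y axis) of 8 members called between WntT (left, 23 points) and NeuT (right, 12 points) tumors, with the mean and SD of each group as cross and bar. The groups of Spag5, Kif4 and Hmgb2 do not overlap, and single WntT tumors lie apart in Cdk9 (-1.28) and Cdk6 (-0.65).

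Of the 87 members 30 had more than 1 clone, and in several of these the clones disagreed. Members with 1 clone, such as Cdk1, Kif4, Hmgb2, Fen1, Lig1 and Kif20a, could not be checked in this way. With each clone fitted on its own, 52.2% of all clones were called in NeuT against VMG, 43.6% in WntT against NeuT and 41.7% in WntT against WntH. In NeuT against VMG the clones of Cdc25a, Cdc42se1, Cdk6, Cdk7 and Cenpm were called in both directions, in WntT against NeuT those of Cdc42se1, Cdk19, Cdk7 and Kif5b, and in WntT against WntH those of Cdc42se1, Cdk19, Cdk7 and Rfc1. The same held in WntT against VMG for Cdc25a, Cdc42se1, Cdk19, Cdk7, Cenpm and Kif5b, and in WntH against VMG for Cdc40. The fall of Cdc40 in NeuT rested on 1 of its 2 clones, with a difference of -4.08 for 1 clone and 0.10 for the other. The values of these genes are therefore uncertain. The clones of Spag5 ran the same way, as given above.

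**Figure D4:**
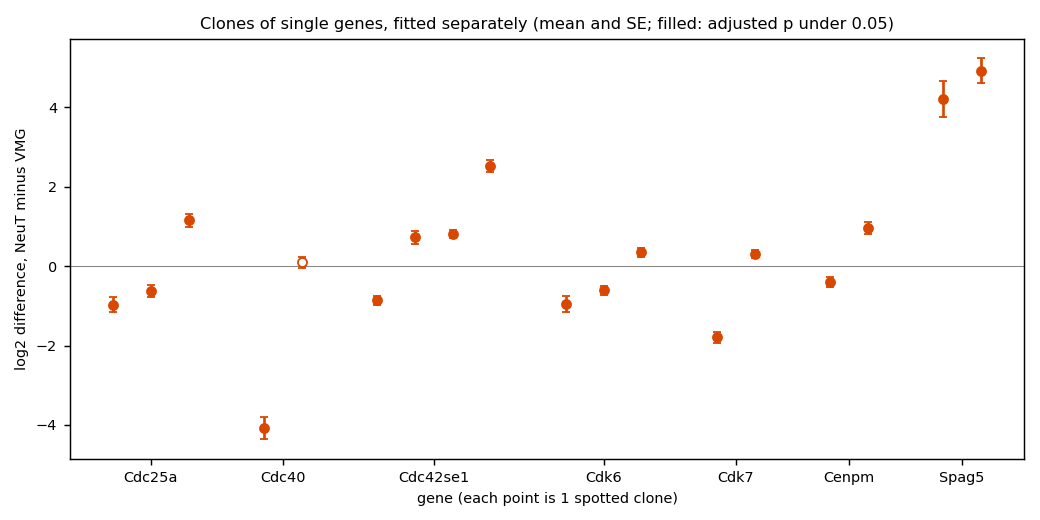
Log2 difference of NeuT minus VMG (y axis) of each clone (point, with its SE) of 7 members with more than 1 clone, each clone fitted on its own, filled where its adjusted p was under 0.05. Both Spag5 clones lie far above 0, the Cdc40 clones lie at -4.08 and 0.10, and the other 5 genes have called clones on both sides of 0.

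Few genes of any kind were called between metastases and tumors, so the small counts of members say little about the members. In WntM against WntT 1 member was higher and 3 lower (background 2.88% and 2.58%), with a median of -0.12 over the members and -0.03 over all genes. Cdc37l1, a relative of the kinase co-chaperone Cdc37, was 1.67-fold higher in WntM, with means of 0.35 ± 0.27 in WntM and -0.39 ± 0.28 in WntT (SD, n = 10 and 23, limma adjusted p = 6.96e-06). It remained higher without the arrays of wide spread (adjusted p = 1.07e-03), but was not called in a fit with the title numbers as blocks. Mcm10, a replication initiation factor (difference -0.50), and the kinases Cdk17 (-0.74) and Cdk19 (-0.34) were lower, but without the arrays of wide spread, of which 3 were WntM, their adjusted p were 0.29, 0.42 and 0.17. No other member was called. Cdk1 differed by -0.09, Fen1 by -0.04, Mcm6 by -0.08, Mad2l1 by -0.06, Spag5 by -0.23, Bub1b by -0.34 and Kif20a by -0.41, where 1 WntM (50), on an array of wide spread, was at -2.57. The wider list had 0 of 37 higher and 1 lower, Pole, the catalytic subunit of a replicative polymerase (-0.24). Lung markers were higher in WntM, 5 of 6 (list mean -0.58 to 1.64, against -4.59 to -2.52 in WntT), and their part in the result was not tested.

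In NeuM against NeuT limma called 0 of 87 members (background 0.155% higher and 0% lower). Their median was 0.05 and that over all genes 0.02. Spag5 was at 3.06, 2.76 and 3.76 in the 3 NeuM, against 1.08, 2.76 and 3.55 (lowest, median, highest) in NeuT (difference 0.61, adjusted p = 0.84), and was at 1.93 and 2.06 in the 2 metastases of tail vein injected mice. Cdk1 was at 0.60, 0.46 and 0.56 in NeuM, against -0.29, 0.34 and 0.85 in NeuT, and at -0.20 and 0.44 after tail vein injection. The member with the smallest p was Cdc27, of the anaphase promoting complex, at 1.02, 0.59 and 0.84 in NeuM, against -0.58, -0.25 and 0.73 (lowest, median, highest) in NeuT (difference 0.94 ± 0.22, adjusted p = 0.17). None (0 of 37) of the wider list was called. Lung markers were higher in 3 of 6 cases (list mean -1.28 to 0.45 in NeuM, against -3.35 to -2.36 in NeuT), and their part in the result was not tested. No member passed the test of a difference between the 2 models in the change from tumor to metastasis (0 called where 0.0515% of all genes were, smallest adjusted p = 0.18).

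On the 8.7k arrays, WntT/p53-/- tumors were set against WntT. Of the 72 members limma called 0 (background 0.192% higher and 0.314% lower). A permutation test after that of the study, with 100 regroupings, called 83 of all 5725 genes at P under 0.001. Of these 0 were members. With Benjamini-Hochberg adjustment it called 0 of all genes, so its 0 members there say nothing about the members. The median difference was 0.15 over the members and -0.02 over all genes, 0.22 over the 47 cell cycle genes and -0.10 over the 25 of other roles. Over the 47 genes, the median log2 ratio per sample had a lowest, median and highest value of 0.02, 0.35 and 0.59 in WntT/p53-/-, against -0.31, 0.13 and 0.43 in WntT.

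The 5 members with the smallest p were Kif20a, Plk4, Mad2l1, Mcm2 and Kif2c, all uncalled. Kif20a was at 0.52, 1.23 and 1.88 (lowest, median, highest) over the 6 WntT/p53-/-, against -0.70, 0.42 and 1.02 over the 10 WntT. Of the WntT/p53-/- 4 lay above all WntT, and the difference was 0.90 ± 0.26 (limma adjusted p = 0.10). Plk4 was at 0.26, 0.35, 0.70, 0.74, 0.76 and 0.78 in WntT/p53-/-, against -0.33, 0.14 and 0.53 (lowest, median, highest) in WntT (0.46 ± 0.13, adjusted p = 0.11). The difference was 0.59 ± 0.18 for Mad2l1 (adjusted p = 0.12), 0.61 ± 0.20 for Kif2c (adjusted p = 0.14) and 0.55 ± 0.17 for Mcm2 (adjusted p = 0.13). The differences of Cdk1 (0.76), Cdca3 (0.60) and Bub1b (0.57) were of like size. Among the 13 replication genes on this array the differences ran from -0.01 for Mcm6 to 0.55 for Mcm2, with 0.50 for Mcm10, 0.39 for Mcm4, 0.35 for Cdc7, 0.20 for Fen1, 0.16 for Mcm5 and 0.05 for Mcm7 and Lig1, and a difference between roles was not tested. Of the wider list 1 of 35 genes was called, Racgap1, a partner of the cytokinesis motor, higher in WntT/p53-/- (0.80, adjusted p = 0.048).

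**Figure D5:**
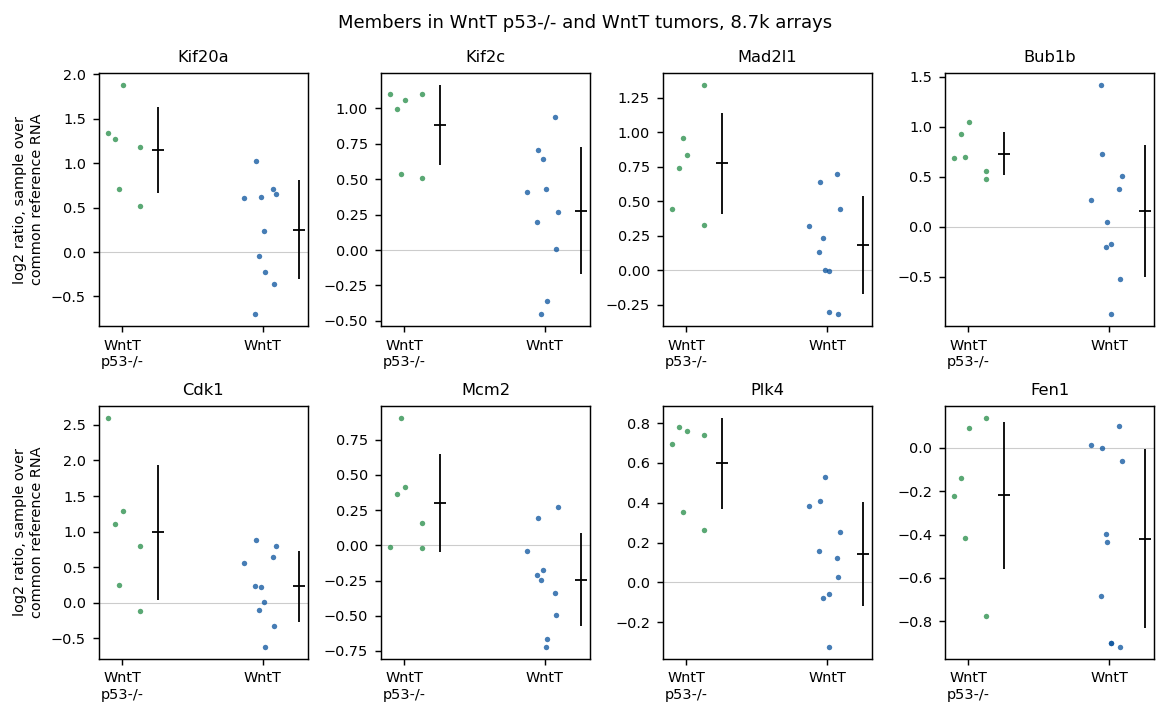
Log2 ratio to the common reference RNA (y axis) of 8 members in WntT/p53-/- (left, 6 points) and WntT (right, 10 points) tumors on the 8.7k arrays, with the mean and SD of each group as cross and bar. The WntT/p53-/- means are higher in each panel with overlapping samples, most for Kif20a and least for Fen1, and no member passed the adjusted threshold.

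Fat, taken from the intestine and not from the mammary fat pad, served as a comparison for VMG. It also differed from VMG in age (12 against 9 weeks). In Fat against VMG 2 members were higher and 4 lower (background 4.30% and 3.19%), with a median of -0.54 over the members and -0.13 over all genes. Cdc42ep2 was at 1.67, 1.46 and 1.42 in the 3 Fat samples, against 0.10, 0.14, 0.38, 0.51 and 0.49 in VMG (adjusted p = 5.13e-03), and Cdc42ep1 was 1.68-fold higher. Mcm7 was at -2.11, -1.82 and -1.88 in Fat, against -1.15, -1.16, -1.28, -1.23 and -1.32 in VMG (1.63-fold lower, adjusted p = 1.19e-02), but quantile normalization ended this call and turned its direction (difference 0.12, adjusted p = 0.82). Cdcp1, Cenpn and Cdk8 were also lower. These 3 calls and that of Cdc42ep1 were each lost when single arrays were left out, with an adjusted p of up to 0.0887 for Cdcp1, 0.065 for Cenpn, 0.105 for Cdk8 and 0.0774 for Cdc42ep1. Cdk1 was at -3.54, -1.997 and -2.13 in Fat and Fen1 at -6.00, -2.41 and -2.45, against -2.16 to -1.74 and -2.42 to -2.17 in VMG, and neither was called. The array of Fat sample 44 had an SD of 2.59 with 1263 ratios under 0.01, and without it 3 members were higher and 8 lower. With all groups in 1 fit, 4 were higher and 37 lower. The shares of all genes in these 2 settings are not given here. Their counts therefore show only that the result depends on the setting. Of the wider list 0 of 37 were higher and 1 lower, Prc1, which bundles spindle microtubules (-0.60). Adipocyte markers were higher in 8 of 9 cases (list mean 3.27 to 3.61 in Fat, against 2.27 to 2.57 in VMG), and 4 of 5 of skeletal muscle were lower, and their part in the result was not tested.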

How the data were processed

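Total RNA of each tissue was labelled with Cy5 and hybridised against 1 common reference RNA (Cy3) on spotted cDNA arrays of 15360 or 8832 clones, scanned and quantified by the authors. The deposited values are the authors' normalized log2 ratios of sample over reference, 1 per clone and array, and neither spot intensities nor spot quality scores were used here. The log base was tested on the values: all 3031 ratios under 0.01 on the 15k arrays and all 124 on the 8.7k arrays fell on whole multiples of 1e-04 once raised from base 2. The study left out genes of low spot quality, which could not be repeated.

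Clones were named from the platform annotation of 2007, updated to current symbols. On the 15k array 11860 clones had 1 symbol, 705 several and 2795 none, and only the first were used, averaged per gene. Groups were compared in pairs with limma 3.58.1 (lmFit and eBayes, R 4.3.3) over all genes measured on 50% or more of the arrays per group, with Benjamini-Hochberg adjustment and a threshold of 0.05. The fit was tested on simulated data. A test after that of the study, a permuted t statistic at P under 0.001, was run as an alternative. It differed from the study's in using fewer regroupings, 100 (55 for Fat minus VMG), with the permuted statistics of all genes pooled. Other normalizations, single clones, stricter calls and samples left out were further alternatives. A further comparison among the 8.7k samples was left out.

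The members, role groups, marker lists and wider cell cycle list (84 genes, 37 measured on the 15k array and 35 on the 8.7k array) were chosen with earlier results of these data known. Genes were named if among the 10 members of largest rise or fall in a comparison, if on a list of 30 core genes (17 measured on the 15k array), if of smallest adjusted p in their role, or if their clones disagreed, and from the wider list the 3 of smallest adjusted p. Sequences are those of RefSeq, build GRCm38.p6. Tables and figures were made with Python 3.11.15, pandas 2.3.3, numpy 2.4.6 and matplotlib 3.10.9.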

Additional observations from a re-analysis of the deposited data

Results flagged for a closer look

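In 14 of 177 groups of 4 to 10 samples, taken over the named genes, 1 sample lay far from the others by Dixon's criterion at the 95% level. Chance gives about 1 in 20 such groups. Among the hyperplastic glands, WntH 5 was highest for 4 genes, with log2 ratios of 0.59 for Hmgb2 (the other 6 between -0.93 and -0.35), 0.67 for Mcm4 (-0.78 to -0.44), 0.32 for Mcm7 (-0.74 to -0.42) and -0.0052 for Plk4 (-1.07 to -0.61), and WntH 10 was at 0.37 for Cdk10. Among normal glands, VMG 13 was at -0.51 for Lig1 (the other 4 between -2.03 and -1.78) and at -0.19 for Kif2c (-1.27 to -0.96).

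Among metastases, WntM 50 was at -2.57 for Kif20a (the other 9 between -0.16 and 0.83) and at 0.13 for Cdca7l, WntM 52 was at -4.74 for Plk4 (-1.57 to 0.33), and WntM 42 was at 0.83 for Cdc26. WntM 50 and 52 were on arrays of wide spread. On the 8.7k arrays, WntT/p53-/- 87 was at -0.17 for Anln and 0.63 for Cdc42ep2 (the other 5 between -0.86 and -0.44), and WntT/p53-/- 88 was at -0.35 for Hmgb2 (0.44 to 0.82).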

How the results depend on the processing

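Of the comparisons of named genes, 2218 of the values recomputed under alternatives kept their direction and side of the threshold, 90 lost the call, 37 gained one and 38 changed sign. Of the 2218, 247 came from asking for a value in every array. That setting could change little, as only 8 values were missing on the 15k arrays and 0 on the 8.7k arrays. Counts of members (higher, then lower) moved as follows, and the shares of all genes under the same settings are not given. At 1.5-fold or more, WntH minus VMG gave 7 and 2, WntT minus WntH 21 and 1, WntT minus VMG 30 and 5, WntT minus NeuT 7 and 4, NeuT minus VMG 8 lower, WntM minus WntT 1 lower and Fat minus VMG 2 lower. The permutation test described above gave 7 and 2 for WntH minus VMG, 4 lower for WntT minus WntH and 1 lower for WntM minus WntT. All groups in 1 fit gave 8 higher for WntH minus VMG, 3 higher for WntM minus WntT and 4 and 37 for Fat minus VMG. Quantile normalization gave 2 higher for WntM minus WntT and 1 higher for Fat minus VMG. Without arrays of SD over 1.3, WntM minus WntT had 0 lower and Fat minus VMG 8 lower. For Fat minus VMG, single clones gave 7 lower, extreme ratios set missing 8 and the trended robust fit 2. Leaving out single arrays gave 3 to 6 lower for WntH minus VMG, and 1 to 3 higher and 1 to 8 lower for Fat minus VMG. The cause was not tested.

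Some calls of named genes rested on single arrays. In Fat minus VMG, Cdk8 was not called (adjusted p 0.0719 to 0.105) without Fat 45, Fat 46 or any VMG, Cdcp1 (0.0502 to 0.0887) without Fat 46 or any VMG, Cenpn (0.0627 to 0.065) without Fat 45, Fat 46, VMG 17, 27 or 29, and Cdc42ep1 (0.0528 to 0.0774) without Fat 45, VMG 17, 27, 28 or 29. Bub1b was called there without Fat 44 (0.0237) or Fat 46 (0.0441), Mcm2 without Fat 44 (0.0381) and Kif2c without VMG 13 (0.0312). In NeuT minus VMG, Cdc27 was not called without VMG 13, 17 or 29 (0.0572 to 0.20). In WntT minus VMG, Cdc25a (0.0583 to 0.159) was not called without VMG 13, 17, 27 or 28, Ccne1 (0.12 and 0.0624) without VMG 27 or 29, and Cdc42se2 (0.0749 to 0.146) without VMG 27, 28 or 29. Cenpm was called without VMG 13 in NeuT minus VMG (0.0315) and WntT minus VMG (0.0351).

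The metastases and tumors share title numbers, and the labels do not say whether a shared number marks 1 animal. Deviations of same-numbered samples correlated between -0.063 and 0.304 for MMTV-Wnt-1 and between -0.012 and 0.102 for MMTV-Neu. By correlation the same-numbered tumor ranked from 1 to 17 of 23 for MMTV-Wnt-1 and from 2 to 9 of 12 for MMTV-Neu. Such values cannot exclude a shared animal, and the numbers were not used as pairs in the main test. With the replicate block WntM minus WntT gave 0 higher and 0 lower (Cdc37l1 0.55, adjusted p = 0.12), and NeuM minus NeuT 0 and 0 as before.

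Values that changed sign were uncalled, apart from Mcm7 in Fat minus VMG (0.12 under quantile normalization). In Fat minus VMG, quantile normalization gave 1.34 for Ccne1, 0.99 for Cdk1, 1.06 for Fen1, 0.78 for Hmgb2, 0.42 for Kif20a, 1.00 for Lig1, 0.63 for Mcm4, 0.66 for Mcm6 and 0.92 for Spag5. With wide arrays left out Ccne1 was 0.86 and Lig1 0.39, and with extreme ratios set missing Ccne1 was 0.86, Spag5 0.69 and Mad2l1 0.0089. Leaving out single arrays gave -2.43 to 0.86 for Ccne1 and -1.95 to 0.39 for Lig1. In NeuM minus NeuT, quantile normalization gave -0.0668 for Hmgb2, -0.10 for Mcm2 and -0.0414 for Mcm5, and the added tail vein metastases -0.0403 for Bub1b, -0.0071 for Hmgb2, -0.12 for Kif20a and -0.0159 for Mcm5. Leaving out single NeuM gave -0.0516 to 0.0711 for Bub1b, -0.0477 to 0.12 for Kif20a, -0.0839 to 0.14 for Mcm2, -0.0874 to 0.15 for Mcm5, -0.61 to 0.18 for Mcm6 and -0.0266 to 0.18 for Mcm7. Quantile normalization gave 0.10 for Cdc25a in NeuT minus VMG and 0.0539 for Cdk1 in WntT minus NeuT. Cdk19 in WntT minus VMG was -0.0240 without wide arrays and -0.0461 to 0.0425 without single VMG. Anln in WntM minus WntT was 0.0367 without wide arrays, and Mcm6 in WntT/p53-/- minus WntT 0.0069 with arrays centred on the median.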
